A study of Homo sapiens with 16 samples.

Results

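Cytosolic ribosomal proteins, the protein subunits of the ribosomes that translate nuclear mRNAs, were followed on 16 arrays of MCF-10A cells treated for up to 45 h with an inhibitor of the HER2 kinase. Members were chosen by symbol alone, as RPL or RPS and a number, with or without a closing A, L or X, together with RPLP0, RPLP1 and RPLP2. Of the 20589 rows of the array, 83 rows with 78 symbols matched, and 80 of these with 75 symbols had a detection p under 0.05 on at least 3 arrays. The rule set no other limit and used no measured change, though it was chosen with earlier results of these data known. A total of 79 member probes were detected on all 16 arrays and 1 of the pair for RPL32 (ILMN_11712) on 15. The 3 matched probes that were left out, for RPL10, RPL10L and RPL3L, were detected on none, and a symbol RPS27 did not match any row. The array therefore gave no level above background for RPL10.

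MCF-10A cells are an established, untransformed line from human breast epithelium that depends on insulin and epidermal growth factor in serum-free medium, both of which the medium of every culture contained. CP724,714 is a small molecule that blocks the HER2 kinase and was added at 1 µM. Parallel cultures were collected every 3 h from 0 h, which was untreated, to 45 h, and the RNA of each was hybridised to 1 Illumina human Ref8v2 array. No time point was repeated and no series without the inhibitor was analysed here. The medium was renewed when the inhibitor was added, so the inhibitor, the age of the medium and the time in culture cannot be told apart. The arrays measure the RNA of a whole culture, in which fewer cells of a kind and less RNA per cell cannot be told apart either. Of 11 symbols for mammary epithelial markers, 8 were detected on all 16 arrays, including KRT5 and KRT18, whereas the basal keratin KRT14 was detected on 1. Of 6 markers for other cells, 4 were detected on no array, PTPRC on at most 5 and PECAM1 on 15.

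The large subunit of the ribosome carries the peptidyl transferase center and is built from rRNA and the RPL proteins, and the small subunit decodes the mRNA and carries the RPS proteins. Their mRNAs are among the most abundant in a growing cell. Most begin with a C followed by an uninterrupted run of pyrimidines, the terminal oligopyrimidine (TOP) motif, through which mTOR signaling and the protein LARP1 set their translation and stability. Growth factor receptors of the HER family feed into this pathway, which is why these mRNAs are of interest when HER2 is inhibited.

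The transcription starts of the members were read from RefSeq on GRCh38.p14, and 59 of the 75 symbols were found there. A C at the annotated start followed by at least 4 further C or T bases was present in 42 of the 59 genes (71.2%), and in 5.14% of all 27305 genes with a start in the same table. Each window below gives 10 bases before the annotated start and 20 from it, on the strand of the gene, with the run of C and T that begins at the start in capitals. The windows shown first are those of 5 members that carried the motif and had higher levels at 36 to 45 h than at 24 to 33 h, described further on.
RPL28, chr19:55385922-55385951, plus strand: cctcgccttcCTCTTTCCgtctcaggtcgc
RPLP1, chr15:69452808-69452837, plus strand: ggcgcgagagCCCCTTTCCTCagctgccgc
RPL13A, chr19:49487598-49487627, plus strand: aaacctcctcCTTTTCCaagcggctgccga
RPL14, chr3:40457329-40457358, plus strand: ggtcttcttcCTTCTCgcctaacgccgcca
RPL22, chr1:6199576-6199605, minus strand: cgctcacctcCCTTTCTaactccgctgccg
RPL10A and RPL4 were also higher, and the motif did not begin at their annotated starts. Both windows hold a run of C and T a few bases further on.
RPL10A, chr6:35468391-35468420, plus strand: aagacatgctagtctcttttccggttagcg
RPL4, chr15:66504836-66504865, minus strand: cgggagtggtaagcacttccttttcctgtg
Of the members with lower levels at 36 to 45 h than at 24 to 33 h that carried the motif, 4 are shown.
RPL29, chr3:51995876-51995905, minus strand: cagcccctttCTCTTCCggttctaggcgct
RPL41, chr12:56116623-56116652, plus strand: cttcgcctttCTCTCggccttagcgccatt
RPL34, chr4:108620566-108620595, plus strand: cttttttcttCCTCTTCCggggacgttgtc
RPS21, chr20:62387093-62387122, plus strand: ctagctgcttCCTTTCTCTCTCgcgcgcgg
In RPS26, RPS15 and RPS7, which were also lower at 36 to 45 h, and in the paralog RPS27L, the motif did not begin at the annotated start. The windows of RPS26, RPS15 and RPS7 hold a run of C and T further on, and in RPS7 another run spans the annotated start.
RPS26, chr12:56041908-56041937, plus strand: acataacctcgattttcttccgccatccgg
RPS15, chr19:1438386-1438415, plus strand: aggcgcggacCaaagcgatctcttctgagg
RPS7, chr2:3575250-3575279, plus strand: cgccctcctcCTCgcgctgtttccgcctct
RPS27L, chr15:63157458-63157487, minus strand: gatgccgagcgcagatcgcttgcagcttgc
At an annotated start, the motif was present in 11 of the 16 matched symbols that were higher at 36 to 45 h than at 24 to 33 h. It was present in 6 of the 10 that were lower, and in 27 of the 37 without a call. An annotated start is not a measurement of where transcription began in these cells. RPL34 has a pair of annotated starts and a pair of probes, and counts in both directions. RPL32, RPL36 and RPS29 each have a probe with a call and a probe without. They therefore count among the called symbols and among those without a call.

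All intensities below were background corrected, quantile normalized across the 16 arrays and given as log2 values. A probe was called time-dependent when a smooth curve of time, a spline, fitted it better than a constant at an adjusted p under 0.05 in limma. Changes were also tested between windows of 4 consecutive time points (0-9 h, 12-21 h, 24-33 h and 36-45 h). The 4 arrays of a window are different time points and not replicates, so the SD given with each mean also holds any change within the window. The deposited intensity had a median of 210 to 254 on the 16 arrays and a highest value of 63833 to 68886. The 8 arrays of 0 to 21 h had 9 to 17 rows over 60000 and the 8 of 24 to 45 h had 21 to 36. Whether these sets of 8 were on different chips is not given in the sources used here, and the part of this difference in any result that crosses 21 to 24 h was not tested. The steps from 0-9 h to 12-21 h and from 24-33 h to 36-45 h lie within these sets of 8 arrays, and the results rest mainly on them.

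The members were among the brightest probes of the array. The median member was brighter than 99.2% to 99.4% of the 11957 tested probes on each array, and the members together gave 9.92% (18 h) to 11.75% (45 h) of the summed intensity of all rows. A mean intensity of at least 40000, a limit chosen after the values were seen, was reached by 41 member probes and by 38 other tested probes. RPL11, which carries the 5S rRNA into the large subunit, and RPS6, the S6 kinase substrate of the small subunit, had the highest mean levels, with deposited intensities from 61452.7 to 67467.4 and from 61520.9 to 67951.1 over the 16 arrays. These values lie at the top of the range of the scanner, and the file has no flag for saturation. Where a symbol has several probes, the brightest is called its main probe here. The lowest mean of a main probe was that of RPL36A, from 264.0 to 356.0, close to the background, and its course was not called time-dependent (adjusted p = 0.25, limma). Levels of different probes are not compared as amounts of mRNA, since each probe has its own affinity.

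For the 41 brightest member probes the highest over the lowest normalized intensity of the 16 arrays was 1.04-fold to 1.49-fold, and 6 were called time-dependent. For the other 39, the range was 1.18-fold to 3.86-fold with a median of 1.96-fold, and 32 were called. Over all members, 38 of 80 (47.5%) were called, against 54.7% of all tested probes. Of 632 other tested probes at least as bright as the members' lower quartile, 74.5% were called. At the step from 24-33 h to 36-45 h the 41 brightest changed by -0.11 to 0.17 on the log2 scale. The 38 other probes of that brightness changed by -0.78 to 0.59, and 10 of them were called. Whether the top of the scale compressed the members was not tested.

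**Figure D1:**
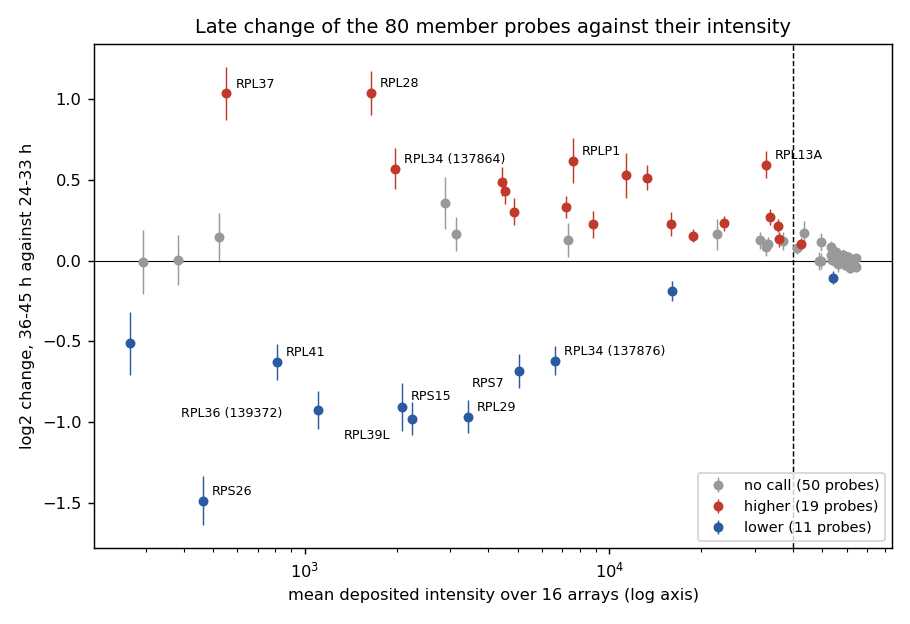
Log2 change from 24-33 h to 36-45 h (vertical axis, bars are standard errors from limma) against the mean deposited intensity over the 16 arrays (horizontal log axis) for the 80 member probes, with the calls in red (19 higher) and blue (11 lower) and a dashed line at an intensity of 40000. The calls lie mostly to the left of the line, where 28 of the 30 are found, and the brightest probes gather at 0. Numbers in brackets tell apart probes of the same symbol.

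Between 0-9 h and 12-21 h, the members called were mostly lower. A total of 19 of the 80 probes fell, against 14.4% of all tested probes, and 1 rose, against 15.1%. Of the 19, 15 were of the large subunit and 4 of the small. Most small subunit probes had a mean intensity of at least 40000, and most probes under that limit were of the large subunit. Subunit and brightness therefore cannot be told apart in these counts. The share of members that fell, 23.8%, was above that of all tested probes, and the median member change was -0.02 (all tested probes -0.0006). Of the 632 other probes at least as bright as the members' lower quartile, 19.9% fell and 25.9% rose, with a median change of 0.02. The scaling of the arrays set the count in part. With median scaling, which itself moved the median of all probes by 0.09, 8 members fell and 3 rose, or 10% and 3.75%, against 8.61% and 23.5% of all tested probes, so the share of fallers was then near that of all probes. With cyclic loess 28 fell and 1 rose, 35% and 1.25%, against 14.5% and 14.8%.

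RPL13A, a large subunit protein that can leave the ribosome to repress translation of inflammatory mRNAs, had log2 intensities of 15.30, 15.30, 15.10 and 15.02 at 0, 3, 6 and 9 h and of 14.52, 14.59, 14.62 and 14.82 at 12, 15, 18 and 21 h. The windows did not overlap, as for 13 of the 80 member probes and 11.4% of all tested probes in that direction. The change was -0.54 (adjusted p = 0.00011 in limma, standard error 0.08). RPL17, which lines the peptide exit tunnel, went from 12.27, 12.22, 12.13 and 12.06 to 11.59, 11.58, 11.61 and 11.93, a change of -0.49 (adjusted p = 0.0006 in limma, standard error 0.09). RPL15 and RPL22, the latter an RNA-binding protein with a part in lymphocyte development, fell less, by 0.29 and 0.30 on the log2 scale, and neither was called with median scaling. RPS23, which lies at the decoding center, was near 9 at the start (9.16, 9.01, 8.71 and 8.48 at 0 to 9 h) and between 8.21 and 8.37 at 12 to 21 h, a change of -0.54 (adjusted p = 0.013 in limma, standard error 0.15). Its values already ran downward from 0 to 9 h, and its call was lost with median scaling.

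From 12-21 h to 24-33 h no member was called in either direction by limma, 8 had an unadjusted p under 0.05, and 0.0251% of all tested probes were called. This is the step across the sets of 8 arrays. With median scaling the median member change here was 0.13, against 0.01 with quantile normalization, and 1 member was called higher. The values of main probes ran from -0.17 for RPLP1 and -0.16 for RPL27A (standard errors 0.14 and 0.16) to 0.22 for RPL32 and 0.25 for RPL17 (standard errors 0.16 and 0.09), none past the threshold.

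From 24-33 h to 36-45 h, 19 probes rose and 11 fell, and the median member change was 0.02. The shares were 23.8% and 13.8% of the 80, near the 19.3% and 18.7% of all tested probes. Of the 632 other probes at least as bright as the members' lower quartile, 26.3% rose and 33.1% fell. The risers were 17 of the 49 large subunit probes and 2 of the 31 small subunit probes, and the fallers were 7 and 4. Of the 39 probes under an intensity of 40000, most of which are of the large subunit, 18 rose and 10 fell. With median scaling 8 members rose and 11 fell (14.4% and 24.5% of all probes), and with cyclic loess 61 rose and 9 fell (20.5% and 18.7%). The additional calls under cyclic loess were mostly of the brightest probes, of which 38 of 41 were then called higher, so no direction is given for these.

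The 50 probes without a call at this step were 39 of the brightest and 11 others. The latter included RPL36A, RPL6, RPL8, RPL9, RPL23, RPL27A, RPL37A, RPS23, the main probe of RPL32 and the dimmer of RPLP0, with changes from -0.01 (RPL36A) to 0.36 (RPL27A, adjusted p = 0.099 in limma). Among the 39, the values ran from -0.05 for RPS27A and -0.04 for RPS6 to 0.11 for RPS9 and 0.17 for RPS4X. The flattest course of all members was that of RPL38, with a range of 1.04-fold over the 16 arrays.

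**Figure D2:**
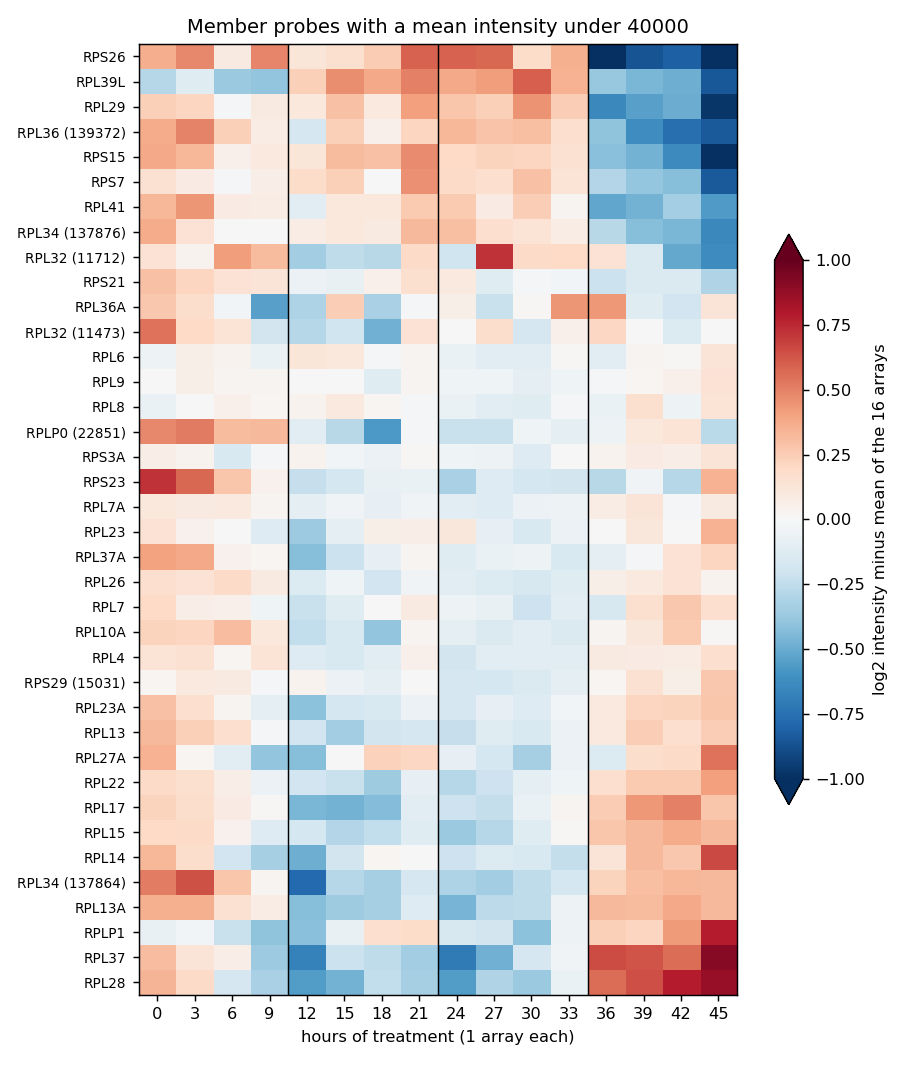
Log2 intensity minus the mean of the 16 arrays (colour) for 38 of the 39 member probes with a mean deposited intensity under 40000 (rows, sorted by their change from 24-33 h to 36-45 h) over hours of treatment (columns, 1 array each), with lines between the windows. The upper rows, from RPS26 to RPS21, are mostly blue from 36 h on, and the lower rows, up to RPL28 and RPL37, are pale or blue from 12 to 33 h and red from 36 h on.

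RPL28 and RPL37, large subunit proteins, had the largest increases among main probes. RPL28 lay at 9.91, 10.17, 10.09 and 10.40 at 24, 27, 30 and 33 h and at 11.03, 11.11, 11.25 and 11.34 at 36, 39, 42 and 45 h, a change of 1.04 or 2.05-fold (adjusted p = 1.5e-05 in limma, standard error 0.14). Every late array was above every array from 24 to 33 h, and above the highest of all earlier arrays, 10.81 at 0 h. The late arrays stood above all 12 earlier ones for 6 member probes (7.5%) and for 8.16% of all tested probes. RPL37 went from 7.80, 8.03, 8.34 and 8.47 to 9.16, 9.13, 9.06 and 9.41, a change of 1.03 (adjusted p = 9.2e-05 in limma, standard error 0.16). RPL37 was a dim probe, with deposited intensities from 386.0 to 801.2. RPLP1, an acidic protein of the stalk that recruits elongation factors, went from 12.65, 12.63, 12.41 and 12.76 to 13.06, 13.03, 13.24 and 13.61, a change of 0.62 (adjusted p = 0.0017 in limma, standard error 0.14). RPL13A returned from 14.48, 14.68, 14.69 and 14.89 to 15.27, 15.26, 15.33 and 15.27, a change of 0.59 (adjusted p = 2.1e-05 in limma, standard error 0.08) that brought it back to its level of 0 and 3 h.

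RPL14 went from 13.22, 13.29, 13.27 and 13.18 at 24 to 33 h to 13.55, 13.74, 13.69 and 14.08 at 36 to 45 h, and RPL22 from 11.80, 11.88, 12.00 and 12.04 to 12.25, 12.35, 12.35 and 12.50. In both the windows did not overlap, as for 21 of the 80 member probes and 22.2% of all tested probes in that direction. RPL14, RPL15, RPL17 and RPL22 rose by 0.53, 0.51, 0.49 and 0.43 at this step (adjusted p = 0.0057, 7.1e-05, 0.00036 and 0.00035, limma). Only the call of RPL14 among these 4 was lost with median scaling, where its change was 0.35. The other risers with a change over 0.2 were RPL13, RPL23A, RPS29, RPL4, RPL10A, RPL7, RPL26 and 1 of the probes for RPL34. Among these, only the RPL34 probe kept its call with median scaling. The call of RPL10A was lost when 27, 33, 39 or 42 h was left out, and that of RPL7 when any of 11 arrays was. Of the 19 probes that fell at 12-21 h and the 19 that rose at 36-45 h, 12 were the same, 63.2% of each list and 15% of the 80 members. Among all tested probes 1722 fell at 12-21 h and 2310 rose at 36-45 h, and 931 did both (7.79% of all). Such a return was thus common among all probes that fell. The 12 were RPL10A, RPL13, RPL13A, RPL15, RPL17, RPL22, RPL23A, RPL26, RPL28, RPL4, RPL7A and a probe for RPL34. All 12 are of the large subunit, and the steps share no array. RPL13A, RPL17 and the RPL34 probe kept both calls with median scaling, and the other 9 lost at least one of them. The earlier call of RPL28 (-0.41) was also lost when 0, 3, 12 or 15 h was left out (-0.30 to -0.39), and that of RPL23A when 12 h was (-0.23).

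**Figure D3:**
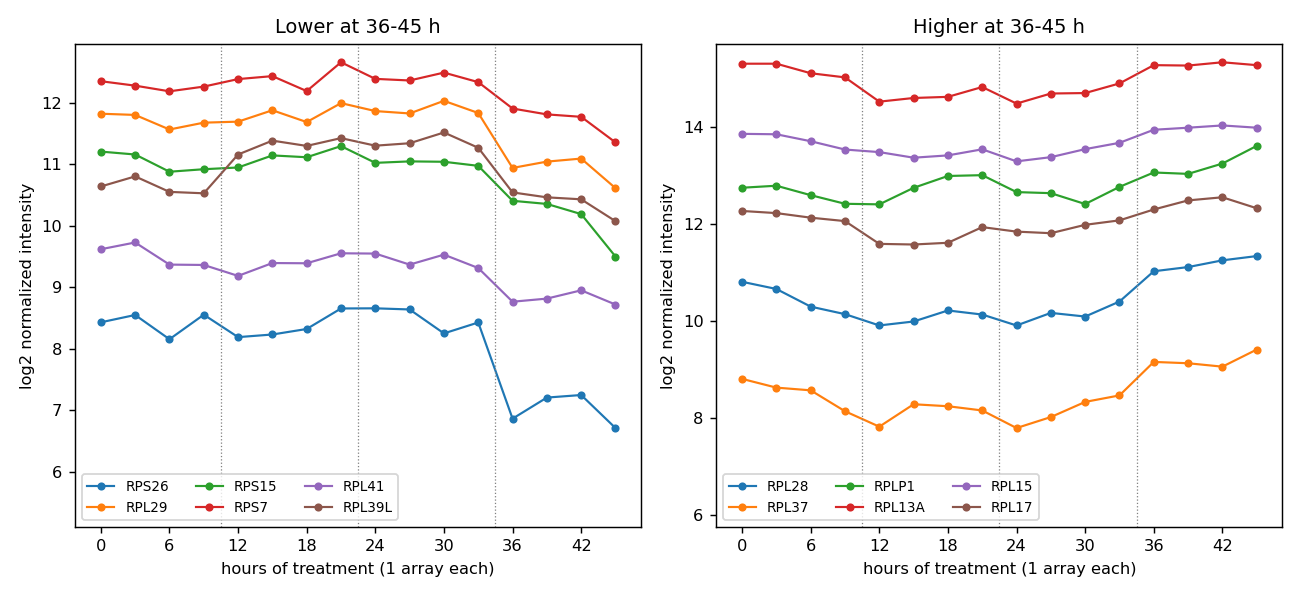
Log2 normalized intensity (vertical axis) of 6 members that were lower (left) and 6 that were higher (right) at 36-45 h than at 24-33 h, by hours of treatment, 1 point for each array, with dotted lines between the windows. On the left RPS26 drops from 8.43 at 33 h to 6.86 at 36 h, and on the right RPL28 and RPL37 stand above all their earlier arrays from 36 h on.

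RPS26, which lies at the mRNA exit channel of the small subunit and is built in late, had the largest decrease. Its log2 intensity was between 8.16 and 8.66 on the 12 arrays of 0 to 33 h and at 6.86, 7.21, 7.25 and 6.71 at 36, 39, 42 and 45 h. The change from 24-33 h was -1.49, 2.80-fold lower (adjusted p = 1.2e-06 in limma, standard error 0.15), and the late arrays stood apart from all others. It was a dim probe, with deposited intensities from 240.0 to 600.1, and RefSeq lists 59 pseudogenes under its name. RPL29, which also binds heparin at the cell surface, was between 11.57 and 12.03 up to 33 h and at 10.94, 11.04, 11.09 and 10.61 thereafter, a change of -0.97 (adjusted p = 1.7e-06 in limma, standard error 0.10). RPS15, a protein of the small subunit head needed for nuclear export of the pre-40S particle, was between 10.88 and 11.30 up to 33 h and at 10.41, 10.36, 10.19 and 9.50 thereafter, a change of -0.91 (adjusted p = 0.00013 in limma, standard error 0.15). The 45 h array was the lowest for RPS26, RPL29 and RPS15. When each time point was left out in turn, their changes were still called and came no closer to 0 than -1.39, -0.87 and -0.70.

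RPS7, which can bind MDM2, was between 12.19 and 12.66 up to 33 h and at 11.91, 11.81, 11.77 and 11.36 thereafter, a change of -0.68 (adjusted p = 6.7e-05 in limma, standard error 0.11). RPL41, the smallest protein of the ribosome, was between 9.19 and 9.73 up to 33 h and at 8.77, 8.82, 8.95 and 8.72 thereafter, a change of -0.63 (adjusted p = 0.00023 in limma, standard error 0.11). The 4 late arrays of these 5 members were below all 12 earlier arrays, as they were for 8 member probes (10%) and for 6.23% of all tested probes. RPS21 declined in smaller steps, from 14.15 ± 0.07 (SD over the 4 time points) at 0-9 h to 13.97 ± 0.11, 13.94 ± 0.09 and 13.75 ± 0.08 in the later windows. It was the only member called lower at both the step to 12-21 h and that to 36-45 h, and each of these calls was lost without at least 2 of the arrays in turn. RPL35 (-0.11) and the dim probe for RPL32 (-0.51) were also lower, and both calls were lost when any of 9 or more arrays was left out. The remaining fallers were RPL39L and a probe each of RPL36 and RPL34, which are described below.

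Over the whole series, from 0-9 h to 36-45 h, 7 members were higher and 10 lower, against 16.2% and 15% of all tested probes. Of the 632 other probes at least as bright as the members' lower quartile, 21.7% were higher and 23.9% lower. RPL28 (0.70), RPL37 (0.65) and RPLP1 (0.60) were the largest increases and RPS26 (-1.42), RPS15 (-0.93), RPL29 (-0.79) and RPL41 (-0.71) the largest decreases of main probes. With median scaling 32 members were higher and 9 lower, against 23.4% and 8.61% of all tested probes. The decreases of RPS26, RPS15, RPL29, RPL41, RPS7 and RPS21 were called under each alternative run. Those of 1 probe each of RPL36, RPL34 and RPLP0 were too, but the other probe of these symbols had no call (-0.13, -0.07 and -0.13). Of the 7 increases, RPL15, RPL17 and RPL3 lost their calls when single arrays were left out, with changes of 0.18 to 0.24, 0.20 to 0.26 and 0.10, and RPL37 when the step between 21 and 24 h was left out of the contrast.

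The members include a pair of paralogs, RPL39L and RPS27L. RPL39L, a copy of RPL39 that is best known from the testis and from tumors, was the only member called higher at 12-21 h. Its values were 10.64, 10.80, 10.55 and 10.53 at 0 to 9 h, 11.16, 11.39, 11.30 and 11.43 at 12 to 21 h, 11.30, 11.34, 11.52 and 11.27 at 24 to 33 h and 10.54, 10.46, 10.43 and 10.08 at 36 to 45 h. The 8 arrays from 12 to 33 h all stood above the other 8. The rise was 0.69 (adjusted p = 0.0001 in limma, standard error 0.10) and the later decline -0.98 (adjusted p = 1.4e-06 in limma, standard error 0.10), and both held under each alternative run. RPL39 itself, at the wall of the exit tunnel, was on the brightest part of the scale and stayed between 15.77 and 15.88 on all arrays. RPS27L, a paralog of RPS27 whose gene is a p53 target, fell from 15.42 ± 0.05 at 0-9 h to 15.19 ± 0.02 at 12-21 h (change -0.24, standard error 0.03, adjusted p = 6.2e-05, limma), and stood at 15.29 ± 0.03 and 15.37 ± 0.01 in the later windows. All 4 arrays of 12 to 21 h were below every other array. RPL39L and RPS27L were the only members with no pseudogene under their name in RefSeq. Over the 75 symbols the median was 15 and the highest number 95, and binding of the probes to pseudogene transcripts was not tested.

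Members were also grouped by their place in the ribosome. Of the 5 stalk probes (RPLP0, RPLP1, RPLP2 and RPL12), RPLP1 rose late, against 19.3% of all tested probes, and the 2 probes of RPLP0 fell at 12-21 h, against 14.4%. The call of the brighter RPLP0 probe was lost without 3, 6 or 18 h and with median scaling. RPLP2 and RPL12 stayed within 1.08-fold and 1.10-fold over the 16 arrays. RPL5 and RPL11, which form the 5S ribonucleoprotein that binds MDM2, had no call at any step, with a highest over lowest intensity of 1.14-fold and 1.06-fold. Of 8 exit tunnel proteins, 4 fell at 12-21 h (RPL17, RPL22, RPL23A and RPL26), the same 4 rose at 36-45 h, and RPL35 fell there, against 14.4%, 19.3% and 18.7% of all tested probes. With median scaling 2 of the 8 fell at 12-21 h, and 2 rose and 1 fell at 36-45 h. Of 10 proteins of the small subunit head and mRNA entry, RPS15 was the only one called at 36-45 h, where it was lower, as 18.7% of all tested probes were. RPS3, RPS19 and RPS10 varied by 1.06-fold, 1.05-fold and 1.07-fold. RPS4X, whose gene lies on the X chromosome, fell by 0.24 at 12-21 h. The call was lost without 3 h (-0.22) and without 18 h, where the change was -0.15. It was also lost with median scaling and when only the 8 arrays compared were fitted. RPS27A, a fusion of ubiquitin and a small subunit protein, and RPL3, at the peptidyl transferase center, varied by 1.10-fold and 1.16-fold. Of the genes listed for Diamond-Blackfan anaemia, RPS26 and RPS7 were called lower at 36-45 h, and RPS19, RPL5, RPL11, RPL35A, RPS24 and RPS10 had no call. The calls were 22.2% of that list, near the 18.7% of all tested probes.

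The symbols RPL32, RPL34, RPL36, RPLP0 and RPS29 had 2 member probes each, and the pairs often disagreed. The brighter RPL34 probe (ILMN_137876) fell by 0.62 on the log2 scale at 36-45 h, from 12.93, 12.79, 12.76 and 12.70 to 12.35, 12.20, 12.17 and 11.98 (adjusted p = 4.2e-05, limma). The dimmer one (ILMN_137864) rose from 10.49, 10.45, 10.54 and 10.62 to 11.02, 11.09, 11.13 and 11.12, a change of 0.57 (adjusted p = 0.0018, limma), and had fallen by 0.75 at 12-21 h, where the brighter changed by 0.02. No direction can be given for RPL34 as a gene. For RPL36, the dim probe (ILMN_139372) went from 10.08 ± 0.07 at 24-33 h to 9.16 ± 0.19 at 36-45 h (change -0.92, adjusted p = 1e-05, limma), and the bright one (ILMN_138036) from 15.53 ± 0.05 to 15.53 ± 0.14. RPLP0, the protein at the base of the stalk, had levels of 13.26, 13.30, 13.09 and 13.10 at 0 to 9 h and of 12.67, 12.50, 12.20 and 12.77 at 12 to 21 h on its dimmer probe (ILMN_22851). Both probes fell at 12-21 h, by 0.65 on the dimmer and by 0.17 on the brighter, whose call was lost with median scaling. For RPS29 the dimmer probe rose by 0.27 at 36-45 h (adjusted p = 0.00046, limma) and the brighter changed by 0.01. The probe sequences were not used here, and which transcripts or pseudogenes each probe can bind was not tested.

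**Figure D4:**
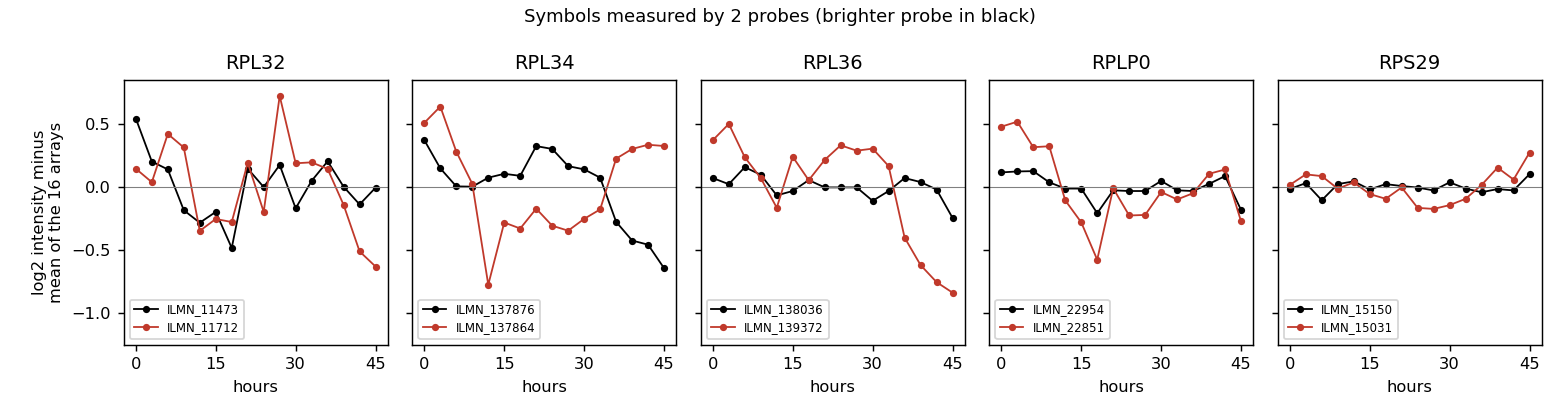
Log2 intensity minus the mean of the 16 arrays (vertical axis) by hours of treatment for the 5 symbols with 2 member probes, the brighter in black and the dimmer in red. The 2 probes of RPL34 go apart after 33 h, and for RPL36, RPLP0 and RPS29 the dimmer probe moves more than the brighter.

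The members did not move as a single block. The median over all members of the centred log2 value stayed between -0.03 and 0.04 on the 16 arrays with quantile normalization, and its order over time differed with median scaling, where it was lowest at 12 h (-0.12) and highest at 45 h (0.18). For the 39 probes under an intensity of 40000 the median was highest at 0 h (0.24) and lowest at 12 h (-0.18), and 12 h was the lowest array under each of the 4 scalings. Over the 16 arrays the median Pearson r between pairs of member symbols was 0.02, against 0 for pairs of all tested probes. It was 0.32 among the 34 symbols whose main probe was under an intensity of 40000 and -0.02 among the other 41. Most like the median of the other members were RPL4 (r = 0.85), RPL13A (0.84) and RPL13 (0.82), and least like it was RPL39L (r = -0.75). All these values share the same 16 arrays and their scaling, and are given as a description.

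**Figure D5:**
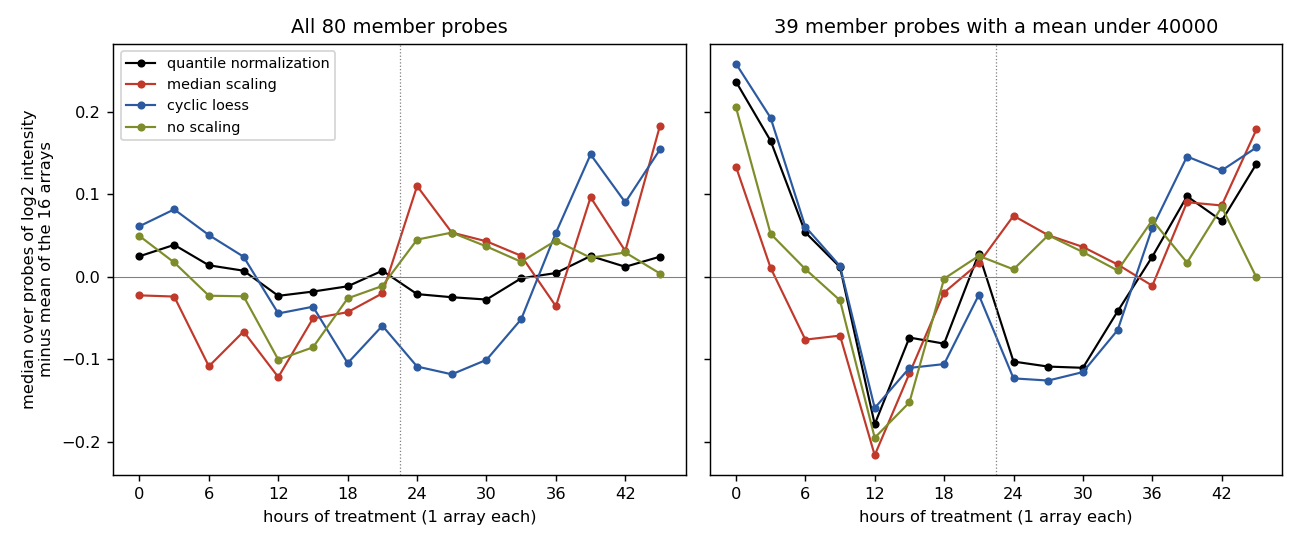
Median over member probes of the log2 intensity minus the mean of the 16 arrays (vertical axis) by hours of treatment under 4 scalings of the arrays, for all 80 probes (left) and for the 39 with a mean intensity under 40000 (right), with a dotted line between the 2 sets of 8 arrays. On the left the curves part, from -0.12 to 0.18 with median scaling and within 0.04 of 0 with quantile normalization, and on the right all 4 fall to their lowest point at 12 h.

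Other genes of translation and ribosome production were taken from lists, chosen with earlier results of these data known, and read in the same fit. Of 13 probes for translation factors with TOP mRNAs, 6 fell and 1 rose at 12-21 h, against 14.4% and 15.1% of all tested probes, and 8 rose and 1 fell at 36-45 h, against 19.3% and 18.7%. EEF2, the elongation factor for translocation, changed by -0.52 and then by 0.54 (standard error 0.08 each, adjusted p = 8.3e-05 and 2.5e-05, limma), and EIF3S3, EIF3S5 and EEF1D also fell and then rose. The median change of this list at 36-45 h was 0.29. With median scaling it was 0.14, 4 rose and 2 fell there, and at 12-21 h 1 rose and 1 fell. EEF1B2 had 2 probes that differed, at 0.00 and -0.84.

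Of 27 probes for ribosome assembly and rRNA synthesis, 10 rose and none fell at 12-21 h, against 15.1% and 14.4% of all tested probes, and 21 fell and none rose at 36-45 h, against 18.7% and 19.3%. The median changes were 0.44 and -0.62, and were 0.61 and -0.75 with median scaling. NOL5A (NOP56), a core protein of the snoRNPs that guide rRNA methylation, changed by 1.05 and then by -1.54 (standard error 0.14 for the latter, adjusted p = 5.1e-05 and 5.3e-07, limma). NCL, the nucleolar protein nucleolin, changed by 0.87 and -0.77, and BOP1, needed for 60S maturation, by 0.97 and -0.62, all called. Within 0-9 h the SD was 0.36 for NOL5A, 0.50 for NCL and 0.48 for BOP1, against 0.12, 0.06 and 0.07 at 12-21 h. The rise of these genes is therefore from the mean of an uneven first window. NPM1, which is on the brightest part of the scale, changed by 0.08 and -0.04 and was not called. Of 88 probes for mitochondrial ribosomal proteins, 17 rose and 5 fell at 12-21 h, and 2 rose and 51 fell at 36-45 h (the same shares of all probes apply), with a median of -0.29 there. With median scaling, 43 of these rose and 2 fell at 12-21 h, and 2 rose and 63 fell at 36-45 h. RPL39L likewise rose and then fell, and no other member was called higher at 12-21 h.

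Among further cytosolic ribosomal protein names outside the rule, FAU, GNB2L1, RPL36AL and RPSA were not called at 36-45 h. The paralogs RPL26L1 (-0.54) and RPL7L1 (-0.48) fell, 28.6% of this list against 18.7% of all tested probes. At 12-21 h RPL36AL (-0.23) and RPL26L1 (-0.38) fell (adjusted p = 0.0047 and 0.0023, limma), 28.6% against 14.4%. With median scaling, 1 of the list fell and 1 rose at 12-21 h. Of 10 genes of the mTOR and S6 kinase pathway, 3 rose at 12-21 h, against 15.1% of all tested probes. Among them were FRAP1 (mTOR, 0.54, adjusted p = 0.026, limma) and RPS6KB1 (S6 kinase, 0.38, adjusted p = 0.006, limma). FRAP1 was dim, with a mean deposited intensity of 530, and its SD was 0.47 at 0-9 h against 0.06 at 12-21 h. At 36-45 h, 4 fell, including FRAP1 (-0.60) and EIF4EBP1 (-0.70), against 18.7% of all tested probes. TSC1 (0.75) and TSC2 (0.53), which restrain mTOR, rose, against 19.3% of all tested probes. Both were dim, with mean deposited intensities of 347 and 492. Of 9 probes for p53 targets, 3 fell and none rose at 12-21 h, against 14.4% and 15.1% of all tested probes. These were the 2 probes of TP53I3 (-0.95 and -0.41) and BBC3 (-0.41), and with median scaling 2 were called. The brighter probe of TP53I3 and BBC3 rose at 36-45 h, by 0.58 and 0.50, where the change of RPS27L was 0.08 and not called. These risers were 22.2% of the list, near the 19.3% of all tested probes. The other p53 targets of the list had no call at either step.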

How the data were processed

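The authors deposited one table of bead intensity, on a linear scale before any normalization, and a detection p-value beside each value; all members are rows of a single probe. The study's methods name quantile normalization, and a background correction is not given in the sources used here.

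Intensities were corrected with normexp, using a background level worked out from the detection p-values, raised by an offset of 16, quantile normalized and log2 transformed (limma 3.58.1, R 4.3.3). The offset compresses changes of dim probes. The 11957 probes past the detection filter were tested with limma, by a moderated F-test over a natural spline (3 degrees of freedom, 12 residual) and by contrasts of 4 windows with an intensity trend. P-values were adjusted by Benjamini-Hochberg over all tested probes, with calls under 0.05. The scripts were tested on simulated data. With 1 array at each time, p-values measure the spread between cultures of neighbouring times.

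The members and lists were chosen with earlier results of these data known. Named members were 20 preset symbols where tested, the 5 largest increases and decreases from 0-9 h to 36-45 h, the 2 largest of each at every step, the lowest and the 2 highest levels, all by main probe, and symbols whose called probes differed in direction. Other members, such as RPS7, RPS21, RPL24, RPL35, RPL36 and RPS29, were chosen after their values were seen. Alternatives changed the background correction, offset, scaling, filter, curve, contrast, arrays in the fit or probe, or left out each time point. Values of some genes are not reported here.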

Additional observations from a re-analysis of the deposited data

How the results depend on the processing

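The counts depended most on the scaling. With median scaling, 32 members were higher at 36-45 h than at 0-9 h (7 with quantile normalization), 3 were higher and 8 lower at 12-21 h (1 and 19), 1 was higher at 24-33 h (0), and 8 were higher at 36-45 h than at 24-33 h (19). With cyclic loess, 61 were higher at that last step and 76 were time-dependent (38), against 10 with a straight line of time. Without the step between 21 and 24 h, 3 were higher at 36-45 h than at 0-9 h. The cause was not tested.

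The median member change from 0-9 h to 36-45 h was 0.13 with median scaling and 0.058 with cyclic loess (0.01), that to 12-21 h 0.0088 and -0.095 (-0.02), that from 12-21 h to 24-33 h 0.13 and -0.023 (0.01), and that from 24-33 h to 36-45 h 0.0029 and 0.20 (0.02). The member median varied over the arrays by 0.30 with median scaling, 0.27 with cyclic loess and 0.15 with no scaling, against 0.07 on the log2 scale.

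With each time point left out in turn, 34 to 39 members were time-dependent, 4 to 9 were higher and 9 to 12 lower over the whole series, the 4 without 42 h. At 12-21 h 1 was higher and 15 to 21 were lower, at 24-33 h 0, and at 36-45 h against 24-33 h 16 to 22 were higher and 8 to 11 lower. The median change at 24-33 h then ran from -0.0054 to 0.022, with the lower end without 12 h. Of the 17, 20 and 30 calls from 0-9 h to 36-45 h, to 12-21 h and from 24-33 h to 36-45 h, 12, 9 and 16 were kept in every alternative.

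Of 1525 values of named members under the alternatives, 33 lost and 28 gained a call. A total of 1454 stayed on the same side of the threshold, which includes changes of sign without a call. The other 10 changed sign with a call in the main run or in the alternative. The late change was then positive with cyclic loess for RPL5 (0.19), RPLP0 (0.17), RPLP2 (0.17), RPS19 (0.18), RPS27A (0.16) and RPS6 (0.18), and on the other probes was -0.51 for RPL32 and 0.57 for RPL34. From 0-9 h to 36-45 h RPS3 was at 0.13 with median scaling and RPL17 at -0.0043 without the step between 21 and 24 h. The limit of 40000, chosen after seeing the data, left 32 time-dependent probes, 18 higher and 10 lower late. A chip could not be used as a block, since no label names one. No paired analysis was possible because each time point has 1 array and no number links arrays. Whether the top of the scale limits the changes of the brightest probes was not tested, and the offset compresses those of probes near background, such as RPL36A and RPL32.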
